A study of Mus musculus with 23 samples.

Results

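Grb10 and 9 other imprinted mouse genes were followed in RNA contacts of the chromatin protein CTCF, measured with iCLIP2. The 10 genes were Grb10, Meg3, Rian, Mirg, Kcnq1ot1, H19, Igf2, Peg3, Snrpn and Mest, and they are 10 of the 55413 genes that the GENCODE M21 annotation places on chromosomes 1 to 19, X and Y. A crosslink site, a single nucleotide called by the authors next to the ends of sequenced fragments, counted for a gene when it lay on its strand between the ends of its annotated body. All coordinates are those of mm10.

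The mouse line was E14, kept as embryonic stem cells (ESCs) or differentiated for 2 days into neural progenitor cells (NPCs). In every group the endogenous CTCF carried a degron on both alleles and was removed with 1 µM 5-Ph-IAA, and a Flag-Halo rescue CTCF placed at the Tigre locus was switched on with 1 µg/mL doxycycline, both for 24 hours. The rescue protein was either complete (WT) or had a deletion in zinc finger 1 (ΔZF1), each in a line of its own, so differences between the proteins and between the lines cannot be told apart. Crosslinking used 400 mJ/cm2 of 254 nm UV, and the controls without UV (noXL) were made in ESCs and NPCs from the WT rescue line, with none from the ΔZF1 line. The 23 libraries formed 6 groups, with 3 libraries in NPC WT and 4 in each of the others, and the libraries of a group were merged before sites were called. There is therefore 1 list per group, no replicate error, and no test between groups. Ranges in brackets are 95% intervals from the Wilson interval of a share and cover counting error only. The 6 lists held from 107227 sites (NPC noXL) to 451137 (ESC WT), and their read depth is unknown. The stem cell marker Esrrb held 460 sites with WT in ESCs and 0 in NPCs. The neural marker Nes went from 2 to 28, and each of Sox1, Pax6, Hes5 and Zic1 stood at 0 in both cell types with WT.

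Imprinted genes are transcribed mainly from the copy inherited from 1 parent, and many are growth regulators or non-coding RNAs of the embryo, placenta and brain. They lie in clusters ruled by control regions that carry DNA methylation on the maternal or the paternal chromosome. At H19 and Igf2 the control region is bound by CTCF only where it is unmethylated, which makes that locus a textbook case of insulation by CTCF. The site lists concern contacts with RNA, not with DNA, and do not separate the parental copies. A gene with more RNA, whether from more expressing cells or from more RNA per cell, can give more sites without a change in binding, and these cannot be told apart here.

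Grb10, Igf2, H19, Peg3 and Mirg, and with few sites Meg3, had more sites in NPC WT than in ESC WT relative to the length of the lists. Together the 10 genes held 457 (WT), 350 (ΔZF1) and 132 (noXL) sites in ESCs, and 973, 641 and 401 in the same order in NPCs. Per 10000 sites in genes this was 10.6, 16.1 and 8.75 in ESCs and 42.3, 41.8 and 39.3 in NPCs. The share taken by imprinted genes was thus higher in NPCs in all 3 kinds of list, the control without UV included. At least 5 sites were found in 9 of the 10 genes in NPC WT, where 13.7% of all genes reached that number. In NPC ΔZF1 it was 7 genes (11.4% of all) and in NPC noXL 8 (9.32%). In ESCs it was 7 genes with WT (15%), 6 with ΔZF1 (13%) and 6 without UV (11.3%). Rian, a non-coding RNA that hosts small nucleolar RNAs, had 0 sites in all 6 lists, and a count of 0 allows up to 3.

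**Figure D1:**
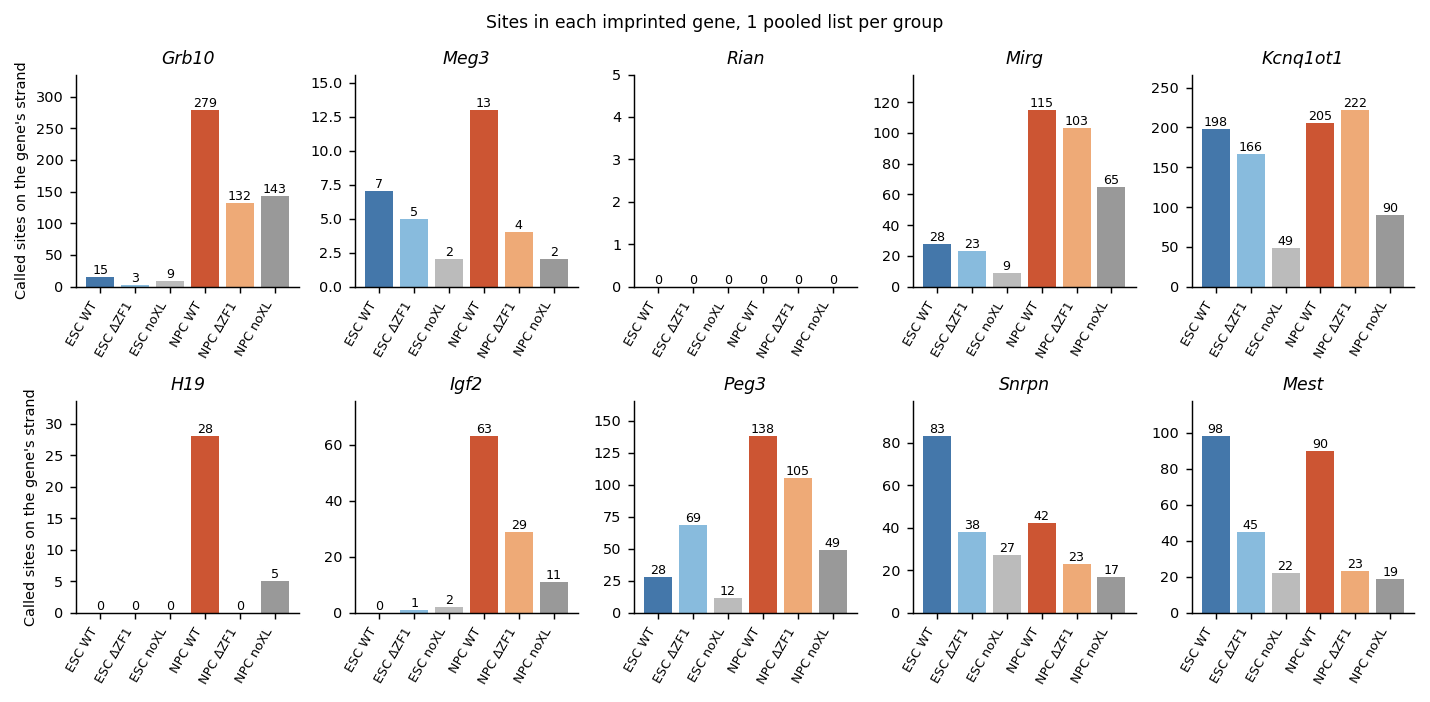
Number of called sites on the strand of each imprinted gene (vertical axes, a separate scale for each gene) in the 6 lists (horizontal axis), 1 bar per list and no replicate error. Grb10 held 279 sites in NPC WT against 15 in ESC WT, Snrpn held 42 against 83, and Rian held 0 in all lists.

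Uridine is the base that UV links most readily, and the control lists show what is called without UV. Over the 10 genes, uridine lay under 62.1% (WT), 52.3% (ΔZF1) and 28.8% (noXL) of the ESC sites, and under 64.9%, 61.5% and 27.2% of the NPC sites. The sites on imprinted RNAs after UV thus differed in base from those without UV in both cell types. Over whole lists the uridine share was 63.9% in NPC WT and 27.9% in NPC noXL.

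The strongest site of most of these genes was nevertheless found without UV too, and the sequences around the strongest NPC WT sites show what they look like. Each has 10 nt on either side, was read from the GRCm38 reference on the gene's strand from 5′ to 3′, and carries the called nucleotide in capitals.
Grb10, chr11:12037391-12037411, minus strand: gtggggtgcgGggaggcggca
H19, chr7:142578099-142578119, minus strand: gggggtggggGgtatcgggga
Igf2, chr7:142651620-142651640, minus strand: acctcctgggGgcaaggtggg
Peg3, chr7:6730411-6730431, minus strand: agcccttgctGcagacgctgg
Snrpn, chr7:60005103-60005123, minus strand: ggcaagactaGcgcagagagg
Mirg, chr12:109743774-109743794, plus strand: agatggcctgTtttcaatacc
Kcnq1ot1, chr7:143296289-143296309, minus strand: ctgcatggttTttcacggtga
Mest, chr6:30747726-30747746, plus strand: cagacattttTgttaaaacag
The called base was a guanine in Grb10, H19, Igf2, Peg3 and Snrpn, and each of these 5 sites, and that of Mirg, had an NPC noXL site within 5 nt. The sites of Kcnq1ot1 and Mest, both on uridine, had none. So 6 of 8 strongest sites were near a control site, while over all 3703 genes with at least 20 NPC WT sites the share was 22.8%. A uridine lay under 3 of the 8, against 61.3% of all such genes. The sites of Grb10 and Peg3 lay exactly on an annotated transcript start in the 5′ UTR, and that of Snrpn 2 nt upstream of one. Within 10 nt of a start lay the strongest site of 21.4% of all such genes.

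In NPC ΔZF1 the picture was similar, with 4 of 7 strongest sites near a noXL site against 11.6% of 2330 genes. Grb10, Igf2 and Peg3 had their strongest ΔZF1 site at the same nucleotide as in WT. The PureCLIP score, which ranks sites within a list and is not scaled to depth, was 93.9 in WT and 34.6 in ΔZF1 for that of Grb10, and 66.2 in noXL.

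A different set of sequences is reached by asking for UV lists and no control. These are positions called at the same nucleotide in NPC WT and NPC ΔZF1 with no NPC noXL site within 5 nt, a choice made after the values had been seen. Grb10 had 8 such positions, Mest 6, Peg3 5, Kcnq1ot1 5, and Meg3, Mirg and Igf2 2 each, while H19 and Snrpn had 0. The examples below are from exons and introns of Grb10 and from exons of Mest and Peg3.
Grb10 5′ UTR, chr11:12037249-12037269, minus strand: ccttcggtttTtctccgttgt
Grb10 3′ UTR, chr11:11931841-11931861, minus strand: gacagcgcttTgtaaagcagg
Grb10 3′ UTR, chr11:11932539-11932559, minus strand: gcctcccattTtcacagccgc
Grb10 coding exon, chr11:11943885-11943905, minus strand: atgactgcctTcagactgctc
Grb10 coding exon, chr11:11951522-11951542, minus strand: agctggactcTggtggaacac
Grb10 intron, chr11:12004315-12004335, minus strand: ttctttttttTtttaccatgc
Mest coding exon, chr6:30742729-30742749, plus strand: actccatattTgagcaggcca
Mest coding exon, chr6:30744875-30744895, plus strand: gaggtgtgctTtcccccatcc
Mest coding exon, chr6:30745087-30745107, plus strand: ctccagtcttTggaccgtata
Peg3 5′ UTR, chr7:6726536-6726556, minus strand: ctatccttttTggagacaact
Peg3 non-coding exon, chr7:6723425-6723445, minus strand: tcttctcattTtgaagtgaga
All 19 positions of Grb10, Mest and Peg3 were uridines, and in 18 of the 19 the base before was a uridine as well. Kcnq1ot1, with as many positions as Peg3, had a uridine at 4 of 5. Among the 10 genes, the base before was counted for Grb10, Mest and Peg3 only. Over the 10 genes 27 of 30 were uridines, or 90.0% (74.4 to 96.5). Over all 7745 positions of this kind in the lists the share was 77.5%, and 69.6% followed a uridine.

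Grb10 encodes an adaptor protein that dampens signalling from the insulin receptor and other growth factor receptors. It is transcribed from the maternal copy in most tissues and from the paternal copy, with a promoter of its own, in neurons. The gene spans 108 kb on the minus strand of chr11:11930508-12038683, and no other annotated gene shares its strand there. In ESCs it held 15 (WT), 3 (ΔZF1) and 9 (noXL) sites, against 279, 132 and 143 in NPCs. The highest ESC count was below the lowest NPC count. The log2 NPC/ESC ratio of sites, with 1 added to both counts and scaled to the sites in genes of each list, was 5.03 (4.37 to 5.86) in WT. It was 5.56 (4.39 to 7.54) in ΔZF1 and 4.41 (3.60 to 5.51) in noXL, and the 3 intervals overlap. The gain of sites on Grb10 was therefore present without UV at a size that counting error does not separate from that after UV. Among the 661 genes of chromosome 11 compared in WT, Grb10 ranked 9 from the top, with the chromosome's median gene at -0.01. It ranked 2 of 410 in noXL and 2 of 426 in ΔZF1.

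The Grb10 sites of the NPC lists lay mostly in introns, where ESC WT and ESC ΔZF1 had none. In ESC WT all 15 were in the 3′ UTR, from 105.4 to 107.8 kb after the start of the gene. In NPC WT 224 of 279 were intronic, 26 in coding exons, 18 in the 3′ UTR, 5 in the 5′ UTR and 6 in non-coding exons. Grb10 introns held 0 sites in ESC WT and ESC ΔZF1, so NPC WT was at least 74.7-fold higher and NPC ΔZF1 at least 31.7-fold higher before scaling, with 3 sites per list as the floor. Intron sites without UV likewise went from 2 in ESCs to 128 in NPCs, a scaled log2 ratio of 5.91 (4.6 to 8.36). In exons alone the scaled log2 NPC/ESC ratio in WT was 2.57, lower than over the whole gene. Of the 15 ESC WT sites, 6 lay within 5 nt of an NPC WT site, or 40%, against 5% after moving positions by 500 and 1000 nt. Sites in NPC WT were spread thinly: 239 regions were left when sites within 8 nt were joined, or 1.17 sites a region. The median NPC score of Grb10 sites was 2.15 with WT, 3.73 with ΔZF1 and 3.63 without UV, near the 2.41, 3.93 and 3.82 of all sites of these lists.

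In NPCs 69.2% (63.5 to 74.3) of the Grb10 sites with WT were on uridine, as were 67.4% (59.0 to 74.8) with ΔZF1, but 28.7% (21.9 to 36.6) without UV. The run TTTT, searched on the gene's strand only, stood in 27.2%, 17.4% and 15.4% of the 21-nt windows around these sites. Over all sites of a list it stood in 10.7% to 20.8%, the lowest in ESC noXL and the highest in ESC WT. The number of Grb10 sites relative to the list was not higher after UV: the scaled log2 WT/noXL ratio in NPCs was -0.21 (-0.50 to 0.08), and 0.96 without scaling. On introns alone it was 0.29 (-0.02 to 0.61), and on exons alone 0.28 (-0.46 to 1.16). With WT, base composition thus separated Grb10 sites with UV from those without, while their scaled number did not. Of the NPC WT sites, 6.45% lay within 5 nt of an NPC noXL site, against 1.61% after moving positions by 500 and 1000 nt.

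**Figure D2:**
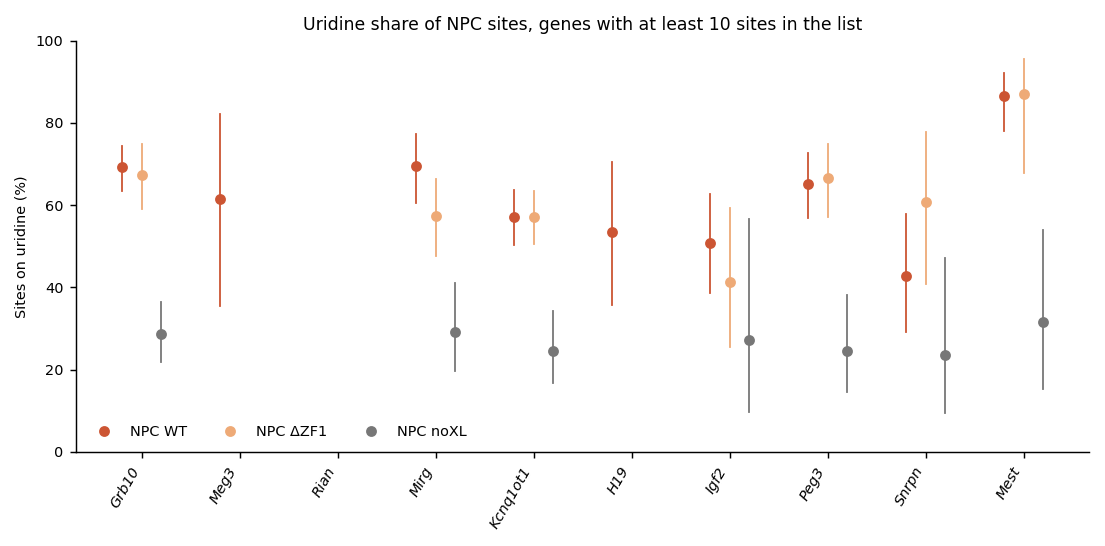
Percent of NPC sites that lie on uridine (vertical axis) for each imprinted gene with at least 10 sites in a list, with points for the 3 NPC lists and bars for 95% Wilson intervals. Grb10 stands at 69.2% with WT, 67.4% with ΔZF1 and 28.7% without UV, and Mest has the highest share in NPC WT and NPC ΔZF1.

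With ΔZF1 in place of WT CTCF, Grb10 had fewer NPC sites, and so did its chromosome. Sites on chromosome 11 made up 11.5% of the NPC WT list and 7.42% of the NPC ΔZF1 list. The scaled log2 ΔZF1/WT ratio was -0.49 (-0.79 to -0.19) for Grb10 and -0.61 for the median of 501 genes of the chromosome, with quartiles at -0.96 and -0.26. Over the genes of the other chromosomes the median was 0.00. Scaled to the sites of chromosome 11 instead of all genes, the ratio of Grb10 was 0.14 (-0.16 to 0.44). Relative to its own chromosome, then, no lower number of Grb10 sites with ΔZF1 was detectable. On this scale uridine sites stood at 0.26 (-0.11 to 0.61) and sites on other bases at -0.01 (-0.55 to 0.50). Intron sites, scaled to the intron sites of chromosome 11, stood at -0.08 (-0.43 to 0.26), and exon sites, scaled likewise, at 0.70 (0.09 to 1.28). The intron ratio was -1.20 (-1.55 to -0.86) when scaled to the intron sites of all chromosomes. Intron sites of chromosome 11 numbered 9539 in NPC WT and 4297 in NPC ΔZF1, at -1.12 on that same scale. In ESCs there were too few Grb10 sites for this ratio.

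**Figure D3:**
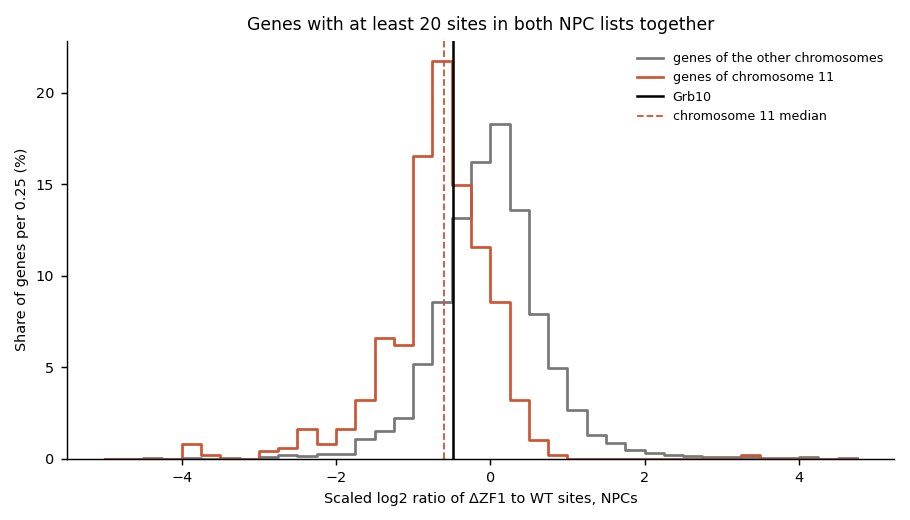
Distribution over genes of the scaled log2 ΔZF1/WT ratio of sites in NPCs (horizontal axis), as the percent of genes per 0.25 (vertical axis), for chromosome 11 and for the other chromosomes (20 or more sites in the 2 lists together). Grb10, at -0.49, sits close to the chromosome 11 median of -0.61, and the other chromosomes centre on 0.00.

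The difference in Grb10 sites between ΔZF1 and WT was uneven along the gene. In the first part of the body, up to its middle, 181 sites were called with WT, 57 with ΔZF1 and 106 without UV. In the part after the middle the lists held 98, 75 and 37. Before scaling, the log2 ΔZF1/WT ratio was -1.65 up to the middle and -0.38 after it, a difference of 1.27 (0.66 to 1.88). Scaled to the lists, the ratio was -1.06 (-1.51 to -0.65) up to the middle, and after it 0.21 (-0.23 to 0.63), not separable from 0. On this scale the median gene of chromosome 11 stood at -0.61 over its whole body. A difference at least that large was found in 6 of 62 genes of chromosome 11 that were 50 kb or longer with 50 or more sites, whose median was 0.22, and in 3.79% of 739 such genes in all. Against noXL the same difference for ΔZF1 was 1.88 (1.15 to 2.62), reached by 3 of 51 genes of the chromosome. For WT against noXL it was 0.62 (-0.03 to 1.26), reached by 21 of 67. Protein-coding transcripts of Grb10 start at 0, 1.28, 10.7, 12.0, 12.4 and 68.0 kb. In NPC WT the sites thinned from 43 between 10 and 20 kb to 6 between 50 and 60 kb and 0 between 60 and 70 kb, and numbered 37 between 70 and 80 kb, just past the last of these starts. NPC ΔZF1 had 10, 1, 1 and 27 sites in these bins, and NPC noXL 28, 1, 0 and 15. The gap ahead of 70 kb and the higher number after it were thus seen in all 3 NPC lists. Of the NPC ΔZF1 sites, 15.2% (10.0 to 22.2) lay within 5 nt of a WT site, against 3.22% after shifts.

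**Figure D4:**
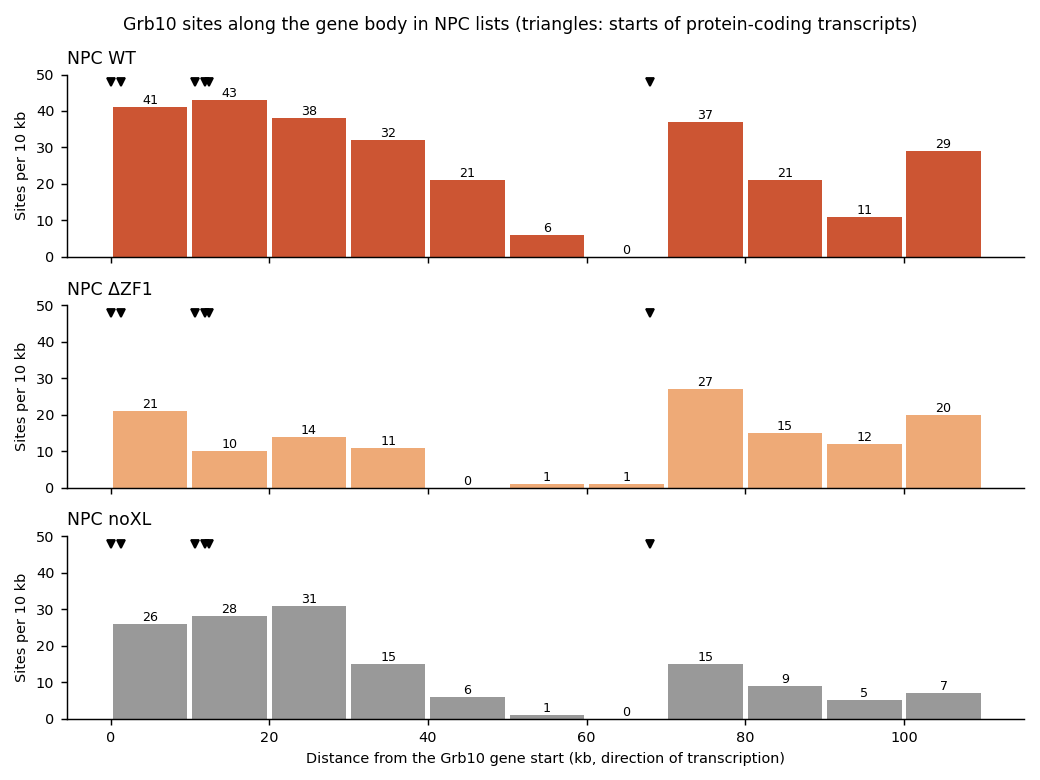
Grb10 sites per 10 kb (vertical axes) by distance from the start of the gene in kb, in the direction of transcription (horizontal axis), in the 3 NPC lists, with triangles at the starts of protein-coding transcripts. NPC WT holds 181 sites before the middle of the gene and 98 after it, NPC ΔZF1 57 and 75.

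By the share of their sites in each of the 6 lists, after scaling, the genes most like Grb10 among 3860 with at least 100 sites included Unc5b, Ppp1r9a, Lin28b and Cyfip2. The measure was the Euclidean distance over the 6 shares, which was 0.036 for Unc5b and 0.067 for Cyfip2. Unc5b, on chromosome 10, held 60, 32 and 31 sites in NPC WT, ΔZF1 and noXL and 0 in the 3 ESC lists. Ppp1r9a, with 276, 114 and 145 sites in NPCs and 20, 20 and 18 in ESCs, is itself an imprinted gene, and Cyfip2 lies on chromosome 11 as Grb10 does.

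Between the cell types, 9 of the 10 genes had the 20 sites in both lists together that a comparison required, all but Rian. In WT 6 of the 9 had a scaled log2 NPC/ESC ratio at or above 1 and 0 at or below -1. Of these 6, H19 (28 against 0) and Igf2 (63 against 0) reached the 20 sites through NPC WT alone, where they are high. Meg3 (13 against 7) only just reached them. Of all 6730 genes compared, 11.5% passed the upper limit and 10.4% the lower. The median of the 9 was 2.90, and that of all genes was 0.04. In noXL, 4 of 6 genes passed the upper limit (11.1% of all genes) and 0 the lower (12.3%), with a median of 1.97 against -0.05. In ΔZF1, 4 of 7 passed it (10.9%) and 0 the lower (14.1%), with a median of 1.11 against -0.08. Grb10, Mirg and Peg3 were past the upper limit in all 3 comparisons, though Peg3 in ΔZF1, at 1.11, was at 0.60 without scaling.

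**Figure D5:**
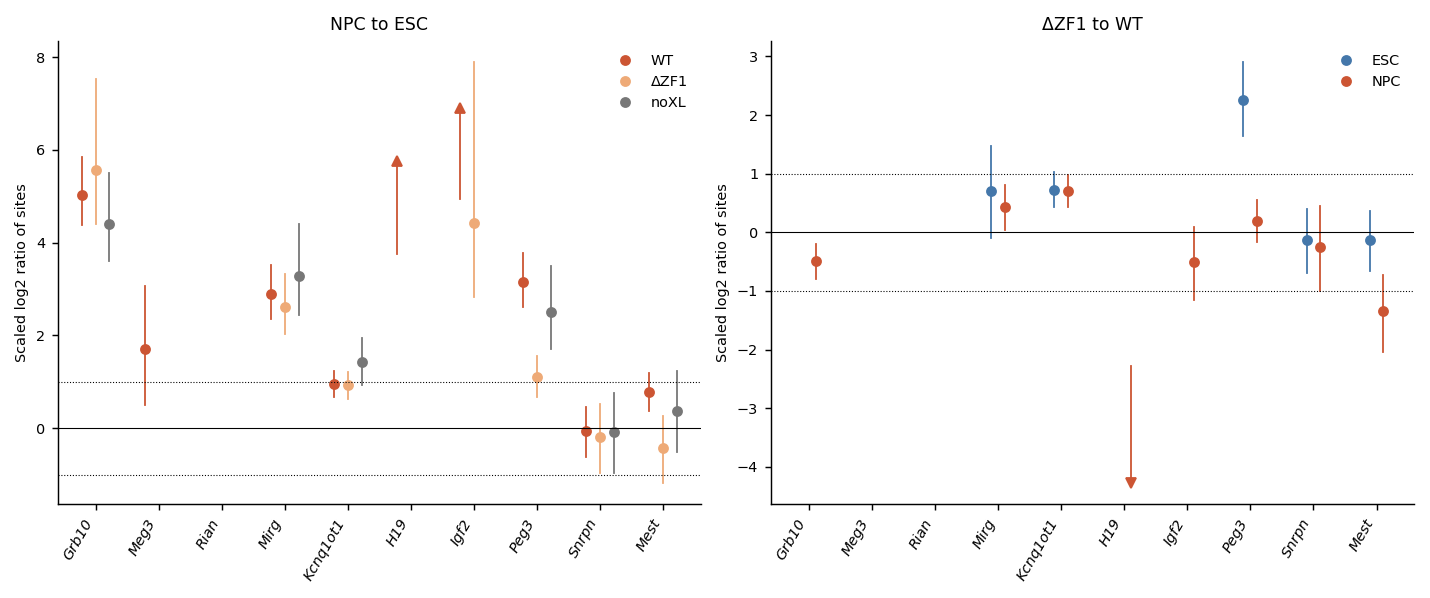
Scaled log2 ratio of sites (vertical axes) of NPC to ESC (left) and of ΔZF1 to WT (right) for each imprinted gene with at least 20 sites in the lists compared. Points carry 95% counting intervals, triangles stand for ratios with 0 sites on 1 side, whose interval is open at that end, and dotted lines mark the limits of 1 and -1. Grb10 is at 5.03 in WT on the left, and Mest in NPCs is at -1.34 on the right.

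After UV relative to no UV, few of the genes stood out beyond their list. With WT CTCF in NPCs, Igf2, H19 and Mest were the 3 of 8 genes at or above 1 on the scaled log2 scale (10.5% of all genes), and 0 were at or below -1 (6.51%). In ESCs 0 of 6 genes passed either limit, which 8.12% and 6.6% of all genes passed. With ΔZF1, Peg3 at 1.90 and Kcnq1ot1 at 1.21 were the 2 of 5 genes past the upper limit in ESCs (7.86%), and 0 passed the lower one (6.56%). In NPCs 0 of 7 passed either limit with ΔZF1 (7.19% and 8.03%), and Grb10 stood at -0.70 (-1.04 to -0.36). None of the 3 calls with WT held throughout. H19 stood at 0.75 (-0.36 to 2.29) on exon sites scaled to exon sites and Igf2 at 0.95 on exon and 0.66 on uridine sites, and Mest, from 1.01, stood at 0.98 when scaled by the median ratio over genes. The control of these ΔZF1 ratios comes from the WT line.

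H19 and Igf2, neighbours on chromosome 7, had almost no sites in ESCs. H19 is a spliced non-coding RNA of the maternal copy, at chr7:142575529-142578143 on the minus strand. NPC WT held 28 of its sites, NPC noXL 5, and NPC ΔZF1 and all 3 ESC lists 0. NPC WT was at least 9.33-fold above both ESC WT and NPC ΔZF1 before scaling. Uridine lay under 53.6% of its NPC WT sites. Igf2, a fetal growth factor made from the paternal copy at chr7:142650766-142666816 on the minus strand, held 63 (WT), 29 (ΔZF1) and 11 (noXL) sites in NPCs. In ESCs the counts were 0, 1 and 2, which puts NPC WT at least 21-fold above ESC WT before scaling. Of the 63 sites, 38 were in the 3′ UTR, 15 in the 5′ UTR, 7 in coding exons and 3 in introns. All Igf2 sites fell within the overlapping gene Gm49394 of the same strand too, so their source between these genes is uncertain. Against noXL in NPCs, Igf2 stood at 1.24 (0.43 to 2.25) and H19 at 1.10 (-0.01 to 2.64) on the scaled log2 scale. The scaled log2 ΔZF1/WT ratio for Igf2 was -0.51 (-1.16 to 0.10).

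Meg3, Rian and Mirg are maternal non-coding RNAs that lie one after the other on chromosome 12, at chr12:109541001-109571726, chr12:109603940-109661716 and chr12:109729764-109749460 on the plus strand. Meg3 held 7, 5 and 2 sites in ESC WT, ΔZF1 and noXL and 13, 4 and 2 in NPCs. Mirg, the host RNA of a large microRNA cluster, held 28, 23 and 9 sites in ESCs and 115, 103 and 65 in NPCs. The 3 genes of 1 cluster thus ran from 0 sites to 115 in NPC WT. From ESCs to NPCs the scaled log2 ratio of Mirg was 2.90 (2.35 to 3.53) in WT, 2.62 in ΔZF1 and 3.29 in noXL. Uridine lay under 69.6% of its NPC sites with WT, 57.3% with ΔZF1 and 29.2% without UV. In NPC WT 68 of the 115 sites were intronic, and 11 lay in the 14 microRNA hairpins within its body, against 7 of 65 in NPC noXL. The scaled ΔZF1/WT ratio in NPCs was 0.43 (0.05 to 0.81), but its sign turned, to -0.16 without scaling and to -0.07 on sites that scored at least the median over all lists. For Meg3 the NPC to ESC ratio in WT, 1.71 (0.51 to 3.07), rests on 20 sites in all and was 0.81 without scaling.

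Kcnq1ot1 is a long unspliced RNA of the paternal copy that runs antisense within Kcnq1 and is known for silencing its neighbours, at chr7:143203458-143296549 on the minus strand. Its ESC counts were 198 (WT), 166 (ΔZF1) and 49 (noXL), and its NPC counts 205, 222 and 90. It was the gene with most sites of the 10 in each ESC list and in NPC ΔZF1. NPC ΔZF1 was the list with most Kcnq1ot1 sites although it is shorter than the NPC WT list. The scaled log2 ΔZF1/WT ratio was 0.73 (0.43 to 1.02) in ESCs and 0.70 (0.43 to 0.98) in NPCs, below the limit of 1, and unscaled it was -0.25 in ESCs, where its sign turned, and 0.11 in NPCs. Against noXL, ΔZF1 stood at 1.21 in ESCs, or 0.88 on sites that scored at least the median over all lists, and at 0.71 in NPCs.

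Sites on Kcnq1ot1 were confined to its first 58.4 kb of 93.1 kb in the 6 lists. Along the first 60 kb, the 10-kb bins of ESC WT held 91, 40, 28, 35, 4 and 0 sites, and those of NPC WT 54, 44, 40, 48, 13 and 6. In NPC ΔZF1 they held 48, 45, 44, 41, 35 and 9. The sites of NPC lists thus reached farther from the start than those of ESC WT and ESC ΔZF1, which ended at 44.3 and 44.7 kb, while ESC noXL sites reached 55.3 kb. Uridine lay under 56.1% of Kcnq1ot1 sites with WT in ESCs and 57.1% in NPCs, and under 24.4% in NPC noXL. Few positions were shared: 7.66% of the NPC ΔZF1 sites lay within 5 nt of an NPC WT site.

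Peg3 encodes a zinc finger protein made from the paternal copy, at chr7:6703892-6730431 on the minus strand. ESCs gave 28 (WT), 69 (ΔZF1) and 12 (noXL) sites, and NPCs 138, 105 and 49. Peg3 was the gene among the 10 that had more sites in ESC ΔZF1 than in ESC WT, Igf2 with 1 site against 0 apart. Scaled, the log2 ΔZF1/WT ratio was 2.25 (1.65 to 2.91) in ESCs, and 1.27 without scaling. It was 1 of 5 genes compared, and 6.84% of all genes passed this upper limit, while 0 of the 5 passed the lower one (5.45%). In NPCs the ratio was 0.20 (-0.17 to 0.56), and -0.39 without scaling, so the scaled intervals of the cell types do not overlap, and the difference was not tested over replicates. The ESC ratio was 2.52 (1.66 to 3.49) on uridine sites and 1.86 (1.06 to 2.77) on other bases. In ESC WT 0 sites and in ESC ΔZF1 2 sites were in introns, so the ESC difference was one of exon sites, at 2.18 (1.57 to 2.84). In NPCs introns held 34 WT and 58 ΔZF1 sites, at 0.78 (0.20 to 1.41) on intron sites alone, and exons 104 and 47, at -0.27 (-0.78 to 0.21). The NPC to ESC ratio was 3.16 (2.62 to 3.78) in WT, 1.11 (0.68 to 1.55) in ΔZF1 and 2.51 (1.70 to 3.49) in noXL.

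Mest encodes a hydrolase-like protein made from the paternal copy, at chr6:30723547-30748465 on the plus strand. Sites numbered 98 (WT), 45 (ΔZF1) and 22 (noXL) in ESCs, and 90, 23 and 19 in NPCs. Before scaling, the NPC count with ΔZF1 was thus close to that of the control without UV. The scaled log2 ΔZF1/noXL ratio was -0.32 (-1.17 to 0.55), though the sites of the 2 lists differed in uridine share, given below. The scaled log2 ΔZF1/WT ratio in NPCs was -1.34 (-2.04 to -0.73), and H19 and Mest were the 2 of 8 genes at or below -1, against 7.36% of all genes, with 0 at or above 1 (5.76%). H19, with 0 ΔZF1 sites against 28, reached the required 20 sites through NPC WT alone. In ESCs the ratio was -0.13 (-0.65 to 0.36), with -0.68 (-1.37 to -0.06) on exon sites and 0.98 (0.13 to 1.83) on intron sites, each scaled to its own kind. In NPCs exon sites went from 47 with WT to 5 with ΔZF1, at -2.14 (-3.66 to -1.08) when scaled to exon sites, and intron sites from 43 to 18, at -1.18 (-2.01 to -0.44). In NPCs uridine lay under 86.7% of the WT sites, 87.0% of the ΔZF1 sites and 31.6% of the noXL sites, the highest share among the genes with at least 10 sites in both UV lists. Its scores were high as well: the median NPC WT score exceeded 87.3% of the list, and the site printed above, in the 3′ UTR, scored 503 and had no control site near it. All sites lay 14.5 kb or more from the annotated start of the gene, which is where the transcript Mest-202 begins. Of the ESC WT sites, 55.1% (45.2 to 64.6) lay within 5 nt of an NPC WT site. From ESC WT to NPC WT intron sites stood at 2.15 (1.44 to 2.91) and exon sites at 0.08.

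Snrpn encodes a core protein of splicing particles and is transcribed from the paternal copy, at chr7:59982495-60140219 on the minus strand. There were 83 (WT), 38 (ΔZF1) and 27 (noXL) sites on it in ESCs, and 42, 23 and 17 in NPCs. From ESCs to NPCs the ratio was -0.07 (-0.62 to 0.45) in WT, -0.19 in ΔZF1 and -0.07 in noXL, so no difference between the cell types was detectable at this depth. Uridine sites alone stood at -0.80 (-1.61 to -0.10) and sites on other bases at 0.94 (0.15 to 1.73), so both kinds of site stood on opposite sides of 0. The uridine share was 68.7% in ESC WT and 42.9% in NPC WT. Of its 230 sites in all lists, 215 fell in a second gene of the strand as well, which leaves their source uncertain, and too few sites for a ratio were left without them.

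Of 37 other imprinted genes, 18 could be compared between NPC WT and ESC WT, with 5 at or above 1 (11.5% of all genes), 4 at or below -1 (10.4%) and a median of 0.49. At or above 1 were Airn, Ppp1r9a, Sfmbt2, Peg10 and Sgce. At or below -1 were Cobl, Plagl1, Igf2r and Ddc. Cobl and Ddc are the neighbours of Grb10, and both went the other way from it. Cobl, an actin regulator, held 760, 292 and 225 sites in ESC WT, ΔZF1 and noXL and 2, 0 and 3 in NPCs. Ddc, the enzyme that makes dopamine and serotonin from their precursors, went from 30 ESC WT sites to 3 in NPC WT. A similar contrast was seen at Igf2r and its antisense RNA Airn: Igf2r went from 182 ESC WT sites to 20 in NPC WT, Airn from 0 to 153. It was present without UV too, where Igf2r went from 52 to 5 and Airn from 3 to 73. Sfmbt2, a Polycomb protein, held 203 sites in NPC WT and 47 in NPC ΔZF1, a scaled log2 ratio of -1.50 (-1.98 to -1.07). Plagl1, a zinc finger gene, held 97 sites in ESC WT, and in NPCs 0 with WT, 28 with ΔZF1 and 0 without UV. Where 1 of the lists compared held 0 sites, as for Airn and Plagl1, the gene reached the required number through the other list alone. In NPCs 15 of the 37 could be compared between ΔZF1 and WT, with Plagl1 at or above 1 (5.76% of all genes) and Peg10 and Sfmbt2 at or below -1 (7.36%). Gnas, Nespas, H13, Copg2, Snhg14 and Ube3a, with 50 or more sites in the WT lists together, were within the limits between the cell types, from -0.20 to 0.97.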

How the data were processed

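CTCF iCLIP2 libraries from mouse E14 ESCs and NPCs were grouped by their labels. The authors used Flexbar for trimming, STAR for alignment to mm10, UMI-tools against duplicates and, on merged libraries, PureCLIP for site calling; bedtools is also named in the submitters' processing notes, and versions were not given in the sources used here. The deposited value of a site is a PureCLIP score. It was used to rank sites and in 1 alternative. Read counts were not used.

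Sites were assigned to GENCODE M21 genes on GRCm38, the same build as mm10, with any exon of any transcript counted before introns. Log2 ratios used a pseudocount of 1, scaling to genic sites, a minimum of 20 sites over both lists, and limits of 1 and -1. A floor of 3 sites served for lists with 0. Sharing meant a site within 5 nt, with shifts of 500 and 1000 nt in both directions as background.

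All 10 genes are named, with other imprinted genes of 50 or more WT sites, the neighbours of Grb10, the 5 genes most like it and each gene's strongest site; Sgce is named beside them to complete a count. Not all of the genes most like Grb10 are reported here. Genes and lists were chosen with earlier results of these data known. Tested on simulated data, 199 of 200 genes changed 4-fold passed the limit between the WT lists, as did 19 of 3815 unchanged genes, and 198 of 200 and 5 of 2170 between NPC ΔZF1 and WT. The simulated counts varied by counting error alone. They covered genes with 50 or more sites over both lists, while calls were made from 20. They therefore do not show how often unchanged genes pass the limits in the real lists. Python 3.11.15, numpy 2.4.6, pandas 2.3.3 and matplotlib 3.10.9 were used.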

Additional observations from a re-analysis of the deposited data

Results flagged for a closer look

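Sites on the strand opposite to Grb10, within its body, belong to none of the comparisons. ESC WT held 34 of them, ESC noXL 11, and ESC ΔZF1 and the 3 NPC lists 0. They lay 96.2 to 108 kb after the start of Grb10, where no gene is annotated on that strand. Uridine lay under 50% (34.1 to 65.9) of those in ESC WT, above the 0% (0 to 25.9) of those in ESC noXL, which is why they are given here. All sites of chromosome 11 numbered 55960 in ESC WT and 19131 in ESC ΔZF1. Which RNA they come from was not tested.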

How the results depend on the processing

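No paired analysis was possible because each group was pooled into 1 list, and no single library could be left out. The Grb10 log2 ratio of NPC to ESC in WT was 4.13 without scaling, 9.02 on introns alone, a value that depends on the pseudocount since ESC WT had 0 such sites, and 2.57 on exons alone. The Grb10 ratio of ΔZF1 to WT in NPCs was -1.07 without scaling, -1.20 on introns and 0.30 on exons, and that of WT to noXL was 0.96, 0.29 and 0.28. The distance of Grb10 from the chromosome 11 median ran from 0.07 to 0.27 over the alternatives, against 0.12. The genes with at least 5 sites numbered 3 in ESC noXL and 5 in NPC noXL on uridine sites only, and 3 and 4 with 20 sites required. The genes past the NPC to ESC limit in WT ran from 4 to 6, all of them higher in NPCs, and Grb10, Mirg and Peg3 were among them in every alternative. The Grb10 uridine share in NPC WT was 75.5% with scores at least the median over all lists. The share of Grb10 NPC ΔZF1 sites near a WT site was 8.33% at the same nucleotide and 35.6% within 50 nt. Of 61 ratios of single genes, 22 were past a limit. Without scaling 19 of the 22 stayed past it, and Meg3 (0.81) and Peg3 with ΔZF1 (0.60) between the cell types did not, nor did Kcnq1ot1 in noXL (0.86). Where at least 20 sites were left, 19 of 21 stayed past it with the score minimum, all but Kcnq1ot1 between the cell types in noXL (0.96) and for ΔZF1/noXL in ESCs (0.88). On uridine sites 15 of 16 did, all but Igf2 for WT/noXL in NPCs (0.66). Mest for WT/noXL in NPCs fell just short, at 0.997 without sites near control sites and at 0.98 with the median scaling, where 21 of 22 stayed past it. With sites in other genes removed 19 of 19 did, and Snrpn kept too few sites for any ratio. With 20 sites, 0 ratios past a limit changed sign, while ratios within the limits did, 13 of them without scaling, 10 with the score minimum, 5 on uridine sites and from 0 to 2 in the other alternatives. Without scaling the Kcnq1ot1 ΔZF1/WT ratio in ESCs went from 0.73 to -0.25, that of Mirg in NPCs from 0.43 to -0.16, and the Mest ratio of NPC to ESC in WT from 0.78 to -0.12. Beyond their interval moved 36 of 61 ratios without scaling, 7 of 56 with the score minimum and 1 of 47 on uridine sites. The cause of each change was not tested where the alternative does not set it. Depth is unknown, so small counts, above all in ESC Grb10, H19 and Meg3, show differences between these pooled lists and not between conditions.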
